A study of Mus musculus with 6 samples.

Results

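Itih2, Ranbp3l, Lrrc17, Arxes1 and Tmem119 are 5 protein-coding genes that were more abundant in every HE sample than in every NC sample. They were put forward as genes with little spread inside the groups, which held most clearly for Itih2 and Tmem119. The within-group SDs of Ranbp3l, Lrrc17 and Arxes1 (0.34, 0.37 and 0.29 on the log2 scale) lay above the median of 0.23 over the genes tested. Spread varies with level, and among tested genes of like level 35.7%, 51.9% and 62.4% had a smaller SD than these 3 genes. All 5 genes were chosen by their RPKM values in these same 6 samples, out of the 22048 genes of the deposited table. Their difference between HE and NC therefore describes that choice and carries no test here. RNA came from 3 HE and 3 NC samples of neural stem/progenitor cells (NSC/NPCs) from the hypothalamus of male C57BL/6 fetuses, isolated at E14.5, grown as floating neurospheres with EGF and bFGF and harvested at passage 1, each sample holding cells of 2 mice. Dams were 8 weeks old. The HE dams had received estradiol valerate by gavage at 100 μg/kg/d from E5.5 to E11.5, and the NC dams corn oil, although the sample labels call NC untreated. The labels do not say whether the mice of different samples came from different dams, so the spread between samples may be partly technical, and such a culture holds only the cells that survive dissociation and grow in this medium. Sox2, a transcription factor of neural stem cells, was between 97.3 and 209 RPKM (reads scaled to gene length and to all counted reads of the sample) and Vim, an intermediate filament of these cells, between 1234 and 1803 RPKM over the 6 samples, and all 12 genes of a neural progenitor list passed the filter on low counts. HE3 stood apart from the rest, with a mean distance to the other samples of 93.6 on the log2 scale over all genes tested against 57.5 to 69.0 for the others, so differences of the 5 genes and medians of gene lists are also given without HE3.

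The 5 genes do not form one pathway, and most of what is known of them comes from connective tissue, bone and fat. Itih2 encodes a heavy chain of the inter-alpha-trypsin inhibitor family, a secreted protein made mainly by the liver that becomes linked to hyaluronan in the extracellular matrix. Ranbp3l encodes a Ran-binding protein that takes the Smads of BMP signaling out of the nucleus, and Lrrc17 a secreted leucine-rich repeat protein that restrains osteoclast formation under RANK ligand. Arxes1 is an X-linked retrogene derived from the signal peptidase subunit gene Spcs3 and is known from fat cell differentiation. Tmem119 encodes a membrane protein that promotes osteoblast differentiation and, in the brain, serves as a marker of microglia.

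The genes lie on chromosomes 2, 5, 15 and X of the mouse genome (GRCm38.p6, the build that the labels call mm10). Itih2 spans positions 10094591 to 10130683 of chromosome 2, Ranbp3l 8967949 to 9067335 of chromosome 15, and Arxes1 136033367 to 136034946 of chromosome X. Lrrc17, from 21543527 to 21575911, and Tmem119, from 113793729 to 113800396, are both on chromosome 5 but far from each other. Their gene lengths in the table, 1580 bases for Arxes1 to 3608 bases for Lrrc17, were all below the median of 4113 bases over the genes tested.

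The sequences just before the gene starts are shown because Arxes1 cannot be read apart from its neighbour Arxes2 there, and because the other starts show how little the genes share. RefSeq's table of promoters (GRCm38.p6) held 4 of the 5 genes, all but Tmem119. The 250 bases before each start are printed 5′ to 3′ on the strand of the gene, with capitals for a GC box (GGGCGG), then for a TATA box, which was searched as the letters TATAAA, and also for a CCAAT box, with both strands searched. The stretches are chrX:136033117-136033366 (plus strand) for Arxes1, chr2:10130684-10130933 (minus strand) for Itih2, chr15:8967699-8967948 (plus strand) for Ranbp3l and chr5:21543277-21543526 (plus strand) for Lrrc17.
Arxes1: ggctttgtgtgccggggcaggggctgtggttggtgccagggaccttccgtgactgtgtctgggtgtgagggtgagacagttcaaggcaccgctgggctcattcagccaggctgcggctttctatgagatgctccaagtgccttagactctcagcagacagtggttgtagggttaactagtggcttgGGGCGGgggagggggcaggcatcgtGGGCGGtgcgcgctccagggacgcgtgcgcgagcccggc
Itih2: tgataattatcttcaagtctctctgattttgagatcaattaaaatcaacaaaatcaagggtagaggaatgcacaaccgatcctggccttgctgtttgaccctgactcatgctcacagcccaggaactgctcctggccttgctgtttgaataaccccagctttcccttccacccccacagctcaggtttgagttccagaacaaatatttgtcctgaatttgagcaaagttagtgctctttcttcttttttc
Ranbp3l: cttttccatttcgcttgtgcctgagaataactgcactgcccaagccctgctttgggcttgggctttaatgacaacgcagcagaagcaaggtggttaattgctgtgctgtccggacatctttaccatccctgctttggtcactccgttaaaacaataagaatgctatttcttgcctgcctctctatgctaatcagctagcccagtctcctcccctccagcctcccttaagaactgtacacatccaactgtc
Lrrc17: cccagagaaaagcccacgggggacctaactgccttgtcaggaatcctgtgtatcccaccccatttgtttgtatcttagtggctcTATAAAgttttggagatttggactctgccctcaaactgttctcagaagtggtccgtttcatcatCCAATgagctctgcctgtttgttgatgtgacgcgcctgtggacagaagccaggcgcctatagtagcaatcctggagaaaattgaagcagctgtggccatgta
The stretch before Arxes2, at chrX:135993570-135993819, matched that of Arxes1 at 250 of 250 bases. Arxes1 had 2 GC boxes, at 64 and 39 bases before the start, and a GC content of 64.4% with 14 CG dinucleotides. Itih2 had a GC content of 43.2% with 1 CG dinucleotide, Ranbp3l of 48.8% with 4 and Lrrc17 of 49.2% with 5, against medians of 60.0% and 15 over the promoters of genes tested. Lrrc17 held a TATA box 166 bases before its start and a CCAAT box 102 bases before it. None of the 4 stretches held the letters AGGTCA of an estrogen response half-site on either strand, which 14.0% of all 32851 promoters of this length and 10.6% of those of tested genes held. A GC box stood in 57.0%, a TATA box in 6.29% and a CCAAT box in 34.7% of the promoters of tested genes. The E-box CANNTG, which 57.9% of these promoters held, was found before Ranbp3l, Lrrc17 and Arxes1 and not before Itih2.

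The samples held 16078675 to 19137059 reads on genes, and differences are given on the scale of log2(RPKM + 0.1), which understates the change of genes at low levels. A gene was tested with limma when 3 or more samples had at least the rate that equals 10 reads at median depth and the 6 samples held at least 15 reads of it together. Ranbp3l, with 3 to 5 reads in each NC sample, passed this filter only through its HE samples. All 5 genes were among the 13952 tested. Of these, 14.8% had every HE sample above every NC sample, and 0.932% had this together with a log2 difference of at least 1, the pattern for which the 5 genes were taken. HE was higher by any amount in 43.8% of genes. With limma and Benjamini-Hochberg adjustment 0.0% of genes passed an adjusted p-value of 0.05 with a log2 difference of 1 in either direction, the smallest adjusted p-value being 0.148, and 20.5% had an unadjusted p-value under 0.05. At an unadjusted p-value under 0.05 and a log2 difference of at least 1, 142 genes (1.02%) were higher and 384 genes (2.75%) lower in HE. This looser criterion is the one counted for the gene lists below. RNA was taken from whole cultures, so more cells that express a gene and more RNA of it per cell cannot be told apart.

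**Figure D1:**
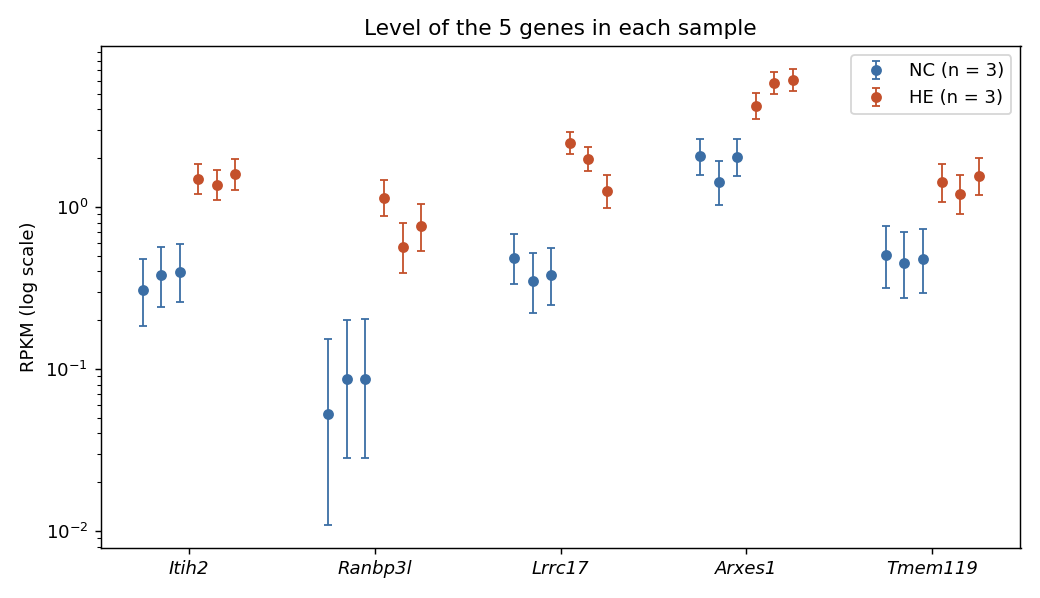
Level of each of the 5 genes in RPKM (log axis) in the 3 NC samples (blue) and the 3 HE samples (orange), with bars for the exact 95% Poisson interval of the read count, which covers counting error only. The groups are apart for every gene, with NC values of 0.0527 RPKM (Ranbp3l, NC1) to 2.06 RPKM (Arxes1, NC1) and HE values of 0.570 RPKM (Ranbp3l, HE2) to 6.10 RPKM (Arxes1, HE3).

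Itih2 was at 0.305, 0.378 and 0.398 RPKM in NC1, NC2 and NC3 and at 1.50, 1.38 and 1.59 RPKM in HE1, HE2 and HE3. The 3 HE samples were nearly level and each held at least 3.46 times the highest NC value. These levels stand on 19 to 25 reads per NC sample and 85 to 89 reads per HE sample. Mean levels were 0.361 ± 0.0488 for NC and 1.49 ± 0.110 RPKM for HE (SD, n = 3 each), a log2 difference of 1.79 with a standard error of 0.19. Without HE3 the log2 difference was 1.74. The within-group SD of Itih2, 0.13 on the log2 scale, was the smallest of the 5 genes, and 4.21% of the 1235 tested genes of like level (within 0.5 on the log2 scale) had a smaller one.

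Hyaluronan is a long matrix sugar that is made by Has enzymes, bound by Cd44 and cross-linked by heavy chains that Tnfaip6 transfers from the inhibitor. The other heavy chain genes did not share the pattern of Itih2. Itih5, which is the next gene on chromosome 2, 22852 bases beyond Itih2, was at 6.06, 6.05 and 4.41 RPKM in NC and 7.31, 6.91 and 4.02 RPKM in HE. Itih3 was at 4.42, 10.6 and 5.01 RPKM in NC and 6.94, 4.53 and 6.10 RPKM in HE, so the groups of both genes overlapped. Itih1 had at most 3 and Itih4 at most 5 reads in any sample, and Ambp, which encodes the light chain bikunin, had 0 reads in NC and 2, 2 and 0 reads in HE. Tnfaip6, the transfer enzyme, was at 6.01, 6.97 and 6.14 RPKM in NC and 9.47, 11.4 and 13.5 RPKM in HE, with a log2 difference of 0.83 (standard error 0.16, adjusted p = 0.195 in limma). Ptx3, a pentraxin that binds the heavy chains, went the other way, from 15.3, 11.7 and 5.33 RPKM in NC to 4.58, 2.33 and 1.53 RPKM in HE (log2 difference -1.91, standard error 0.49, adjusted p = 0.195 in limma). Has2, the main hyaluronan synthase, had a log2 difference of -1.36 and Cd44 of -0.84. Of the 21 tested of 27 genes on this list, 11 were higher and 10 lower in HE, 0 met the looser criterion upward and 2 downward (Ptx3 and Has2), and the median log2 difference was 0.10, against -0.06 over all genes tested. This median was 0.08 without HE3, but -0.05 without HE1, -0.01 without NC2 and 0.0054 without NC1, so its sign rested on single samples.

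Liver plasma protein genes gave no counterpart to Itih2. Alb was at 1, 3 and 1 reads in NC and 0 reads in every HE sample, 2 of the 13 genes of this list passed the filter, and their summed level was 7.24 to 10.1 RPKM in NC and 7.34 to 12.7 RPKM in HE. The other direct neighbour of Itih2, Kin, which encodes a DNA-binding protein, lies 1889 bases away and had a log2 difference of 0.02 (standard error 0.15, adjusted p = 0.949 in limma).

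Ranbp3l had the largest log2 difference and the lowest level of the 5 genes. It had 3, 5 and 5 reads in the NC samples, or 0.0527, 0.0861 and 0.0870 RPKM, and 62, 33 and 37 reads in HE1, HE2 and HE3, or 1.14, 0.570 and 0.758 RPKM. HE1 held 2.00 times the level of HE2, and even HE2 was 6.56 times above the highest NC sample. Mean levels were 0.0753 ± 0.0196 for NC and 0.823 ± 0.291 RPKM for HE (SD, n = 3 each), and the log2 difference was 2.36 with a standard error of 0.28 (2.39 without HE3). Of 974 tested genes of like level 35.7% had a smaller within-group SD. Over the summed reads, 132 in HE and 13 in NC, the rate in HE was 10.9 times that in NC, with a 95% interval of 6.15 to 21.0 that covers counting error only. At so few NC reads the value depended on the scale, and a pseudocount of 1 RPKM in place of 0.1 left a log2 difference of 0.75.

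The Ran cycle carries proteins through nuclear pores, with the GTPase Ran as its switch and Xpo1 as the chief exporter. All 14 genes of this list were tested and all were higher in HE, by 0.02 to 0.57 on the log2 scale with a median of 0.22, and 6 of them had groups that did not overlap. Over all genes tested, 43.8% were higher in HE by any amount, and 14.8% had every HE sample above every NC sample. None met the looser criterion in either direction. Ran was at 179, 163 and 200 RPKM in NC and 218, 239 and 366 RPKM in HE (log2 difference 0.57, adjusted p = 0.217 in limma), with the highest value in HE3, and the list median was 0.16 once HE3 was left out. Ranbp3, the closest relative of Ranbp3l, was abundant and level, at 62.9, 65.6 and 58.4 RPKM in NC and 59.6, 64.8 and 72.3 RPKM in HE.

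Among 28 tested of 31 BMP-Smad genes, 10 were higher and 18 lower in HE, with a median log2 difference of -0.12 (0.08 without HE3), 2 met the looser criterion upward and 0 downward. The 2 were the ligands Bmp7 and Bmp5. Bmp7 was at 4.26, 3.15 and 6.99 RPKM in NC and 8.94, 10.9 and 13.6 RPKM in HE, and Bmp5 was at 0.119, 0.0389 and 0.157 against 0.819, 0.326 and 0.170 RPKM. Both ligands had groups that did not overlap, for Bmp5 by a narrow margin at HE3. Id1, a direct Smad target, was at 58.3, 49.1 and 59.5 RPKM in NC and 94.5, 72.1 and 53.5 RPKM in HE, so HE3 lay inside the NC range. The neighbours of Ranbp3l, Slc1a3 (a glutamate transporter, 257141 bases away) and Nadk2 (a mitochondrial NAD kinase, 3924 bases away), had log2 differences of -0.21 and -0.36 and overlapping groups.

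Lrrc17 was at 0.487, 0.348 and 0.380 RPKM in NC and at 2.49, 1.99 and 1.26 RPKM in HE, from 24 to 33 and 73 to 161 reads. HE1 was 1.98 times as high as HE3, the lowest HE sample, which was still 2.58 times the highest NC sample. The means were 0.405 ± 0.0731 and 1.91 ± 0.621 RPKM (SD, n = 3 each) and the log2 difference was 1.96 with a standard error of 0.28, or 2.21 without HE3. Lrrc17 was the gene of the 5 in which HE3 was lowest, and 51.9% of 1299 tested genes of like level had a smaller within-group SD. It lies inside the span of Fbxl13, a gene on the opposite strand, for which 5, 6 and 5 reads were counted in NC and 15, 9 and 4 in HE. The use of strand in counting is not given in the sources used here. Reads in the overlap could therefore have been split between Lrrc17 and Fbxl13, which was not tested. The nearest genes on either side of Lrrc17 and not overlapping it, Fam185a and Armc10, had log2 differences of 0.08 and 0.03.

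Osteoclasts form from myeloid cells when RANK ligand (Tnfsf11) binds its receptor, and Tnfrsf11b (osteoprotegerin) blocks the ligand. Tnfsf11 held 15 reads in NC and 5 in HE over all samples, Tnfrsf11a 6 and 15, and Dcstamp, which fuses osteoclasts, 0 reads in all samples. Tnfrsf11b was at 0.492, 0.334 and 0.225 RPKM in NC and 0.277, 0.149 and 0.243 RPKM in HE. Of the 12 tested of 18 genes on this list, 5 were higher and 7 lower, with a median log2 difference of -0.08 (0.01 without HE3), and 1 met the looser criterion, upward. That one was Ctsk, a collagen-cleaving protease of osteoclasts and fibroblasts, at 2.96, 1.31 and 2.79 RPKM in NC and 12.3, 8.81 and 5.43 RPKM in HE (log2 difference 1.87, standard error 0.39, adjusted p = 0.195 in limma).

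Arxes1 was the most abundant of the 5 genes in all 6 samples. It was at 2.06, 1.42 and 2.04 RPKM in NC and 4.21, 5.84 and 6.10 RPKM in HE, from 43 to 61 and 119 to 176 reads. HE1 was the lowest HE sample and lay 2.04 times above the highest NC sample, the narrowest ratio among the 5 genes. The means were 1.84 ± 0.361 and 5.38 ± 1.03 RPKM (SD, n = 3 each), with a log2 difference of 1.50, a standard error of 0.22 and a value of 1.40 without HE3. Among 2018 tested genes of like level 62.4% had a smaller within-group SD.

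Arxes2 is a near-identical copy of Arxes1 that ends 38007 bases before it, and reads that match both genes may have been split, so their separate values are uncertain. Arxes2 was at 3.55, 4.54 and 5.10 RPKM in NC and 8.13, 9.65 and 10.4 RPKM in HE, again with no overlap (log2 difference 1.09, standard error 0.18, adjusted p = 0.195 in limma). Summed over both genes, 163, 176 and 209 reads were counted in NC and 342, 458 and 411 in HE, which is 9.64 ± 1.23 and 22.9 ± 3.37 RPM (RPKM without the division by gene length; SD, n = 3 each), a ratio of the means of 2.38. The sum does not depend on how reads were split between the pair if each shared read was counted once, which is not known. Arxes1 took 37.4, 24.4 and 29.2% of the summed reads in NC and 34.8, 38.4 and 37.7% in HE. The share of NC1 lay within the range of the HE samples, and the exact 95% binomial interval of NC2, 18.3 to 31.5%, lay below that of each HE sample apart from HE1 (29.8 to 40.1%).

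**Figure D2:**
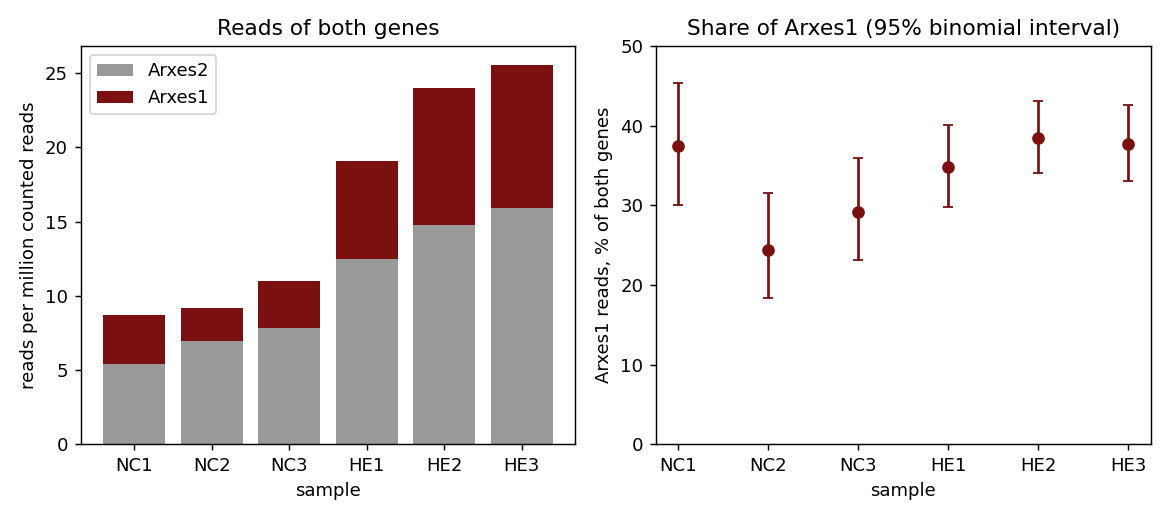
Left, RPM of Arxes1 (dark red) and Arxes2 (grey), stacked, in each of the 6 samples. Right, Arxes1 as a percentage of the reads of both genes with its exact 95% binomial interval, which covers counting error only. The summed bars reach 8.69 to 11.0 in NC and 19.1 to 25.6 in HE.

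Spcs3, the parent gene of Arxes1 and a subunit of the complex that cuts signal peptides from secreted proteins, was at 10.1, 8.44 and 8.77 RPKM in NC and 10.8, 9.92 and 12.9 RPKM in HE, so HE2 lay inside the NC range. Of the 5 signal peptidase genes 4 were higher and 1 lower in HE with a median log2 difference of 0.29 (0.19 without HE3), and 0 met the looser criterion in either direction. Spcs1 was the one with no overlap, at 19.6, 22.0 and 23.0 RPKM in NC and 32.8, 27.7 and 28.0 RPKM in HE. On the other side of Arxes1, 31618 bases away, lies Bex2, a small brain-expressed X-linked gene, which was at 154, 155 and 156 RPKM in NC and 232, 256 and 310 RPKM in HE (log2 difference 0.77, standard error 0.14, adjusted p = 0.195 in limma). Bex2 thus had groups that did not overlap, with HE above NC, as had 14.8% of all tested genes. Arxes2 had this too, but its reads may be split with those of Arxes1. The tested neighbours of Itih2, Ranbp3l, Lrrc17 and Tmem119 all overlapped.

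Fat cell genes as a group did not share the direction of Arxes1, and their summed level was 207 to 220 RPKM in NC and 108 to 181 RPKM in HE. Pparg, the master factor of adipogenesis, had 8, 4 and 5 reads in NC and 5, 6 and 7 reads in HE, and Adipoq 1 read in NC and 7 in HE over all samples. Neither added much to the sum, which lay mostly in other listed genes and is not a measure of fat cells. Of 15 tested of 25 listed genes 4 were higher and 11 lower, with a median log2 difference of -0.25 (-0.21 without HE3). The 1 gene that met the looser criterion upward was Fabp4, a fatty acid carrier of fat cells and small vessels, at 0.0356, 0.0582 and 0.0235 RPKM in NC and 0.784, 0.327 and 0.236 RPKM in HE. Fabp4 passed the filter only through its HE samples. The 1 that met it downward was Plin4, a lipid droplet coat protein, with a log2 difference of -1.45.

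Tmem119 was the steadiest of the 5 genes in NC, at 0.506, 0.451 and 0.479 RPKM from 22, 20 and 21 reads. In HE it was at 1.42, 1.20 and 1.56 RPKM from 59, 53 and 58 reads. The lowest HE sample, HE2, was 2.37 times the highest NC sample. The means were 0.479 ± 0.0275 and 1.39 ± 0.181 RPKM (SD, n = 3 each), and the log2 difference was 1.36 with a standard error of 0.19, or 1.28 without HE3. Its within-group SD on the log2 scale was 0.13, and 5.40% of 1277 tested genes of like level had a smaller one.

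Microglial genes were listed to set beside Tmem119, and they did not move together. P2ry12, a purine receptor of resting microglia, had 13, 16 and 15 reads in NC and 21, 14 and 6 reads in HE, and Csf1r, the receptor on which microglia depend, had 18, 15 and 14 reads in NC and 23, 12 and 21 in HE. The complement gene C1qa had 0, 0 and 1 reads in NC and 18, 5 and 53 in HE, C1qb 2, 0 and 0 against 22, 12 and 35, and the protease gene Ctss 0, 0 and 5 against 38, 10 and 66. These 3 genes ranked HE3, HE1, HE2 from high to low, the order that Tmem119 also had in RPKM, and had 0 to 5 reads in each NC sample, against 20 to 22 reads of Tmem119. Itgam had at most 3 and Gpr34 at most 2 reads in any sample. Of the 22 listed genes 9 passed the filter, 3 higher and 6 lower, and 1 met the looser criterion upward (C1qb) and 1 downward (Olfml3). C1qb passed only through its HE samples, and C1qa and Ctss did not pass. The median log2 difference was -0.10 (0.10 without HE3). It was 0.28 with no filter beyond 1 read and -0.72 when at least 10 reads were asked of every sample, so its sign depended on the filter. The summed level of the list was 44.5 to 60.2 RPKM in NC and 38.1 to 44.6 RPKM in HE. With their few NC reads, P2ry12, Csf1r, C1qa, C1qb and Ctss added little to the NC sum, so it is not a measure of microglia. The part of microglia in the difference of Tmem119 was not tested.

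Osteoblast genes were split as well. Of 14 tested of 23 listed genes 8 were higher and 6 lower, with a median log2 difference of 0.10 (0.18 without HE3), 2 meeting the looser criterion upward and 2 downward. Spp1, the matrix protein osteopontin, was at 19.8, 7.51 and 31.0 RPKM in NC and 74.4, 29.9 and 62.5 RPKM in HE, and Pth1r, the parathyroid hormone receptor, had a log2 difference of -1.28. Alpl, the alkaline phosphatase of mineralizing cells, was the gene with all HE samples above NC, at 4.58, 3.15 and 4.67 RPKM in NC and 6.63, 8.52 and 7.62 RPKM in HE. Runx2, which commits cells to this lineage, was between 0.106 and 0.308 RPKM in all samples and overlapped. Selplg and Iscu, the genes on either side of Tmem119, were at most at 0.102 RPKM and between 16.2 and 24.98 RPKM, with overlapping groups.

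In NC the order of levels was Arxes1, then Tmem119, with Itih2 and Lrrc17 below it and Ranbp3l lowest. Tmem119 (0.451 to 0.506 RPKM) did not overlap Itih2 (0.305 to 0.398 RPKM) in NC, but both overlapped Lrrc17 (0.348 to 0.487 RPKM). Itih2 and Lrrc17 also changed places between NC1 and the other samples. In HE, Arxes1 stayed highest and Ranbp3l lowest in every sample, and between them Lrrc17 was above Itih2 and Tmem119 in HE1 and HE2 but below both in HE3. By mean level, 0.416% of tested genes were lower than Ranbp3l in NC and 25.6% lower than Arxes1. In HE these shares were 16.1% and 49.1%. Because Ranbp3l passed the filter only through its HE samples, its low rank in NC follows from the filter and the choice of the gene.

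**Figure D3:**
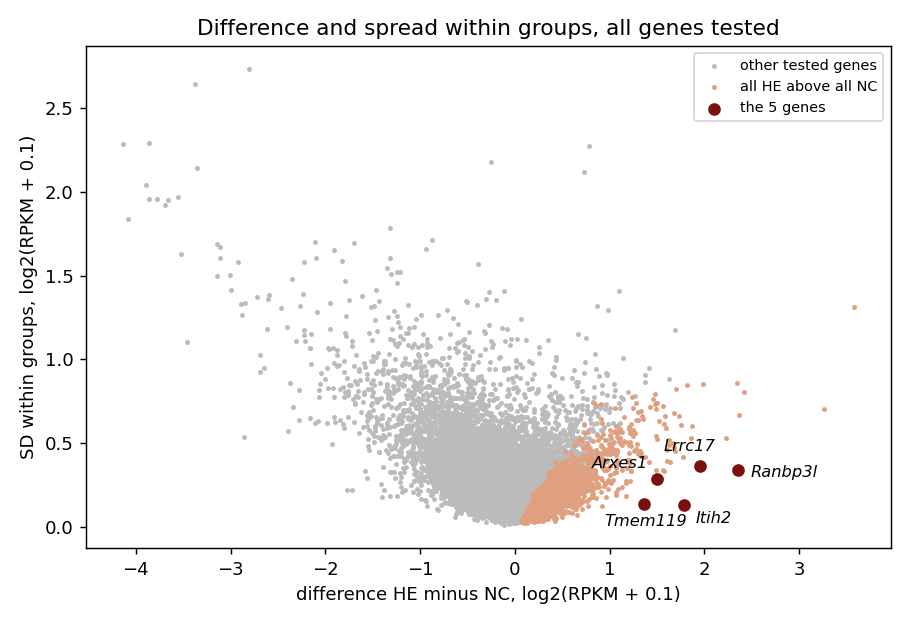
Difference between HE and NC (x axis) and SD within groups (y axis), both on the log2(RPKM + 0.1) scale, for the 13952 genes tested, with genes in which all HE samples lay above all NC samples in orange and the 5 genes in dark red. The 5 genes lie at differences of 1.36 to 2.36 with SDs of 0.13 to 0.37, and Itih2 and Tmem119 lie lowest among them.

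Of all tested genes 53 had a log2 difference of at least 1.36, that of Tmem119, and in 48 of them the groups did not overlap. The 2 nearest to the edge of the rule on its outer side were Pou3f1 and Spp1. Pou3f1, a POU factor of neural and glial precursors, was at 1.02, 0.937 and 1.06 RPKM in NC and 1.03, 3.02 and 6.53 RPKM in HE, so that HE1 fell below NC3. Arxes1 had the smallest gap between the groups among the 5 genes, 1.00 on the log2 scale, and so lay well inside the rule. Col3a1, with a log2 difference of 1.50 and a gap of 0.08, lay closer to its edge. Of the 48 genes, 9 had a within-group SD no larger than that of Lrrc17 (0.37). They were the 5 genes together with Twist1, Gjb2, Nnmt and Egfl6, which are named here after their values were seen. Twist1, a bHLH factor of mesenchyme, was at 0.956, 0.873 and 0.980 RPKM in NC and 2.90, 3.93 and 2.19 RPKM in HE. Gjb2, a connexin, was at 0.509, 0.282 and 0.263 against 1.39, 1.26 and 1.01 RPKM. Nnmt, a nicotinamide methyltransferase, had a log2 difference of 1.57 and Egfl6, a matrix protein gene on chromosome X, of 1.49. Nnmt and Egfl6, like Ranbp3l, passed the filter only through their HE samples.

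The 5 genes fell into different shapes across the HE samples. Ranbp3l and Lrrc17 were highest in HE1, whereas Itih2, Arxes1 and Tmem119 were highest in HE3. Profiles were also compared relative to the NC mean by their root mean square difference on the log2 scale over the 6 samples. This measure takes in the size of the difference between HE and NC as well as the shape. By it Arxes1 and Tmem119 were the nearest pair, with 0.26, and Ranbp3l and Arxes1 the farthest, with 0.77. The shapes of the nearest pair still differed, as Arxes1 was lowest in HE1 and Tmem119 in HE2 among the HE samples.

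**Figure D4:**
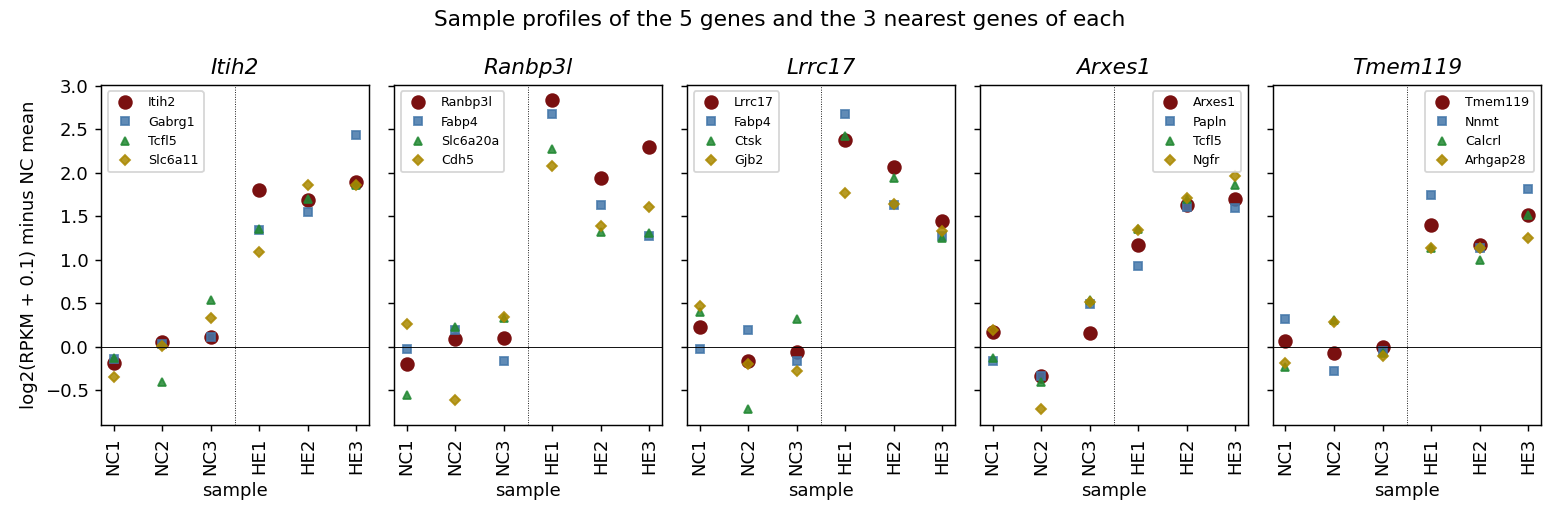
Level of each of the 5 genes (dark red) and of the 3 tested genes with the most similar profile, as log2(RPKM + 0.1) minus the mean of the NC samples, in each sample. NC samples lie left of the dotted line around 0 and HE samples right of it. Lrrc17 and its nearest genes are highest in HE1, which the choice of these genes by profile favours.

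Among other tested genes, the nearest profiles were found by the same measure. For Lrrc17 they were Fabp4 (0.29), Ctsk (0.30) and Gjb2 (0.33). Ranbp3l shared Fabp4 (0.46) and had also Slc6a20a (0.56), a proline transporter, and Cdh5 (0.59), the cadherin of endothelial cells. Fabp4, Ctsk, Slc6a20a and Cdh5 were all highest in HE1, as were Ranbp3l and Lrrc17. They were picked for their likeness to these profiles in the same samples, so the shared peak follows from that choice. For Itih2 they were Gabrg1 (0.30), a GABA receptor subunit, the transcription factor gene Tcfl5 (0.31) and Slc6a11 (0.32), a GABA transporter of glia. Slc6a11 was by far the most abundant of these, at 16.9, 21.8 and 27.2 RPKM in NC and 46.1, 78.4 and 78.8 RPKM in HE. For Arxes1 they were Papln (0.22), a matrix protein gene, Tcfl5 (0.23) and Ngfr (0.25), a neurotrophin receptor, and for Tmem119 Nnmt (0.23), Calcrl (0.24), a receptor for adrenomedullin and related peptides, and Arhgap28 (0.24). The adjusted p-value of limma was 0.195 for each of these genes. Fabp4 and Nnmt passed the filter only through their HE samples.

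Marker lists gave the levels of other cells that the cultures could hold. The meningeal and perivascular fibroblast list had 24 of 28 genes tested, 15 higher and 9 lower in HE, with a median log2 difference of 0.31 (0.49 without HE3). Of these, 7 (Twist1, Col3a1, Col6a3, Dcn, Mgp, Slc6a13 and Aldh1a2) met the looser criterion upward and 0 downward. Dcn, a matrix proteoglycan, was at 5.96, 2.46 and 2.46 RPKM in NC and 22.3, 9.18 and 6.48 RPKM in HE, and Aldh1a2, the retinoic acid enzyme of the meninges, at 6.61, 2.61 and 4.22 against 19.4, 12.7 and 6.81 RPKM. Slc6a13, a GABA transporter of the meninges, was at 1.30, 1.64 and 1.64 RPKM in NC and 4.19, 3.50 and 2.81 RPKM in HE. In these 3 genes, as in Lrrc17, the order within HE ran from HE1 down to HE3. Twist1, another of the 7, did not follow this order, at 2.90, 3.93 and 2.19 RPKM in HE1, HE2 and HE3. Other defining markers did not share the higher level in HE, with Foxc1 between 2.92 and 3.95 RPKM in all samples and Islr lower in HE (log2 difference -0.98). The summed level of the list was 284 to 408 RPKM in NC and 231 to 472 RPKM in HE, so it overlapped, and without NC2 the median log2 difference was 0.08. The part of fibroblasts in the differences of Lrrc17, Ranbp3l, Itih2, Arxes1 and Tmem119 was not tested.

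Endothelial genes were low, with a summed level of 3.16 to 4.18 RPKM in NC and 4.64 to 5.87 RPKM in HE. Most of the higher sum in HE lay in Cdh5 alone. Of 12 listed genes 5 were tested, 3 higher and 2 lower, and Cdh5 met the looser criterion upward, at 0.708, 0.341 and 0.755 RPKM in NC and 2.75, 1.66 and 1.95 RPKM in HE, whereas Sox17 had 0 reads in all samples. Among 12 tested pericyte and smooth muscle genes 8 were higher and 4 lower, and Vtn, the matrix protein vitronectin, met the looser criterion upward, at 0.840, 0.952 and 3.80 RPKM in NC and 8.20, 8.52 and 8.12 RPKM in HE. The summed level of this list, 95.1 to 151 RPKM in NC and 87.4 to 146 RPKM in HE, overlapped. Choroid plexus genes varied more between samples than between groups, with Ttr, the thyroid hormone carrier of that tissue, at 40.1, 36.1 and 187 RPKM in NC and 393, 49.4 and 8.21 RPKM in HE. The parts of these cell types in the differences of the 5 genes were not tested.

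**Figure D5:**
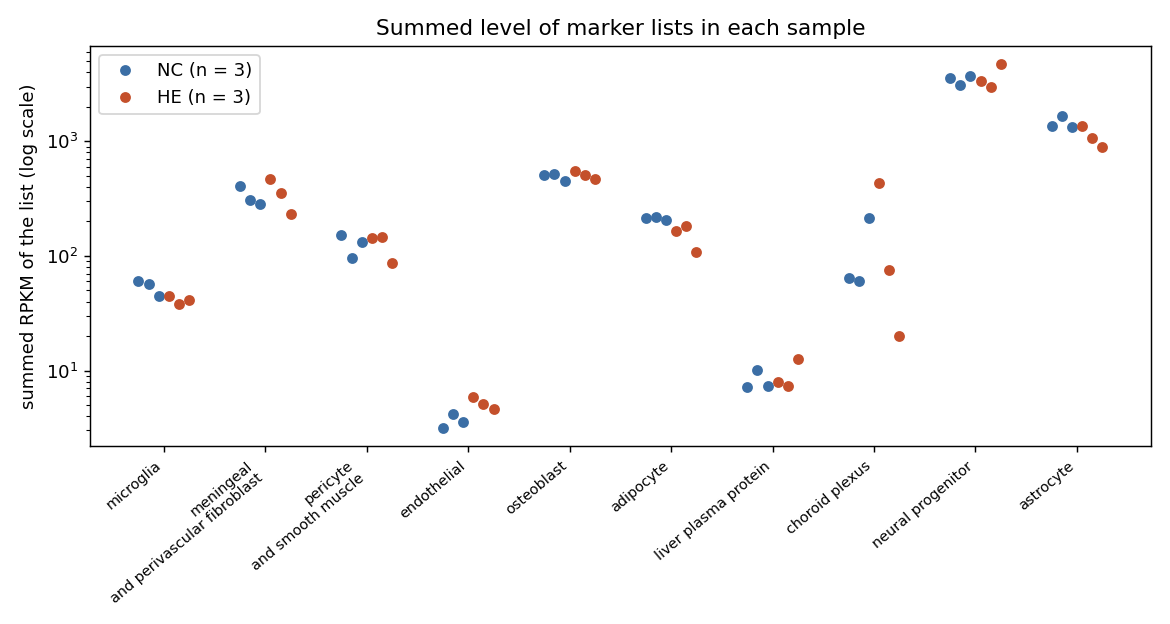
Summed RPKM (log axis) of each list of marker genes in the 3 NC samples (blue) and 3 HE samples (orange), with one point per sample. The fibroblast, pericyte, osteoblast, liver and choroid plexus lists overlap between groups. The endothelial list is higher in every HE sample (4.64 to 5.87 RPKM) than in NC (3.16 to 4.18 RPKM), mostly through the single gene Cdh5. The adipocyte list is lower in every HE sample, though its sum lies mostly in genes other than Pparg and Adipoq.

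Neural lists gave medians below 0 with all samples, of which those of the neuronal and oligodendrocyte lists changed sign when 1 sample was left out. Of 12 progenitor genes 2 were higher and 10 lower with a median log2 difference of -0.33 (-0.21 without HE3), of 10 neuronal genes 4 were higher and 6 lower with -0.10 (-0.17 without HE3, 0.08 without NC1, 0.03 without HE2), and of 7 tested oligodendrocyte lineage genes 2 were higher and 5 lower with -0.32 (0.15 without HE3). Of 7 astrocyte genes 3 were higher and 4 lower with a median of -0.27 (-0.18 without HE3), and Gjb6, a connexin of astrocytes and meninges, met the looser criterion upward, at 0.305, 0.507 and 0.209 RPKM in NC and 1.65, 0.878 and 1.15 RPKM in HE. Estrogen receptor reads were few, with 15 reads of Esr1 in NC and 16 in HE, and 8 and 16 reads of Esr2. Of the 10 tested of 15 estrogen response genes 3 were higher and 7 lower in HE, with a median log2 difference of -0.19 (0.04 without HE3). Igfbp4, an IGF-binding protein, met the looser criterion upward (log2 difference 1.10) and Greb1, a cofactor of the estrogen receptor, downward (-1.02). Tff1 had 0 reads in all samples.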

How the data were processed

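RNA was sequenced from 3 HE and 3 NC samples. According to the methods and the submitters' processing notes (CASAVA 1.7, TopHat2, build mm10), the authors filtered the reads for quality and adaptors, aligned them and counted them per gene. The deposited table holds read counts and RPKM, which the authors computed from count, gene length and sample total (recomputed values differed by at most 4.99e-07). The counting tool and its use of strand are not given in the sources used here. Symbols were found for 21781 of 22048 identifiers.

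The authors used a count test. Count cells here carry commas and were not accepted as numbers by the unit check, so limma 3.58.1 (R 4.3.3, mean-variance trend, group as the only term) was run on log2(RPKM + 0.1) with Benjamini-Hochberg adjustment, and reads (commas removed) served the filter, the intervals and voom as an alternative. The fit was tested on simulated counts. The 5 genes, the lists and the rule for other names (overlapping and nearest genes, the 3 nearest profiles, in each list the largest differences and highest levels) were chosen with earlier results of these data known. Further list members were chosen after their values were seen. The motifs were also chosen later. At this depth 1 read on 1 kilobase is 0.0523 to 0.0622 RPKM. Intervals and floors cover counting error only. Alternatives were another pseudocount, filters, scaling, voom, the replicate number as a block and each sample left out.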

Additional observations from a re-analysis of the deposited data

How the results depend on the processing

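Over 12 alternatives the 5 genes gave 59 log2 differences (Ranbp3l had no value when at least 10 reads were asked of every sample), all upward and all with HE above NC, a direction that the choice of these genes favours. With a pseudocount of 1 the log2 differences shrank to 0.87 for Itih2, 0.75 for Ranbp3l, 1.03 for Lrrc17, 1.16 for Arxes1 and 0.69 for Tmem119. With voom, which works on reads, they were 2.03 for Itih2, 3.28 for Ranbp3l and 1.51 for Tmem119. The size of the change at these low levels therefore depended on the scale. With one sample left out, the range was 1.702 to 1.85 for Itih2, 2.12 to 2.56 for Ranbp3l, 1.75 to 2.21 for Lrrc17, 1.33 to 1.66 for Arxes1 and 1.28 to 1.46 for Tmem119.

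Genes past an adjusted p-value of 0.05 and a log2 difference of 1 numbered 0 as reported and under every alternative that kept all samples, voom included. With one sample left out they numbered 0 to 103, the 103 without NC3 and 0 in the other cases. By the looser criterion 142 genes were higher and 384 lower, against 46 and 184 with a pseudocount of 1. With one sample left out, 130 to 189 were higher and 212 to 713 lower (713 without HE1, 212 without HE3, 220 without NC1). Median-of-ratios scaling gave 166 and 357. Deviations of same-numbered samples correlated by 0.156, 0.0869 and 0.0603, so the numbers were not taken to pair the samples. With the replicate number as a block, 0 genes passed the adjusted threshold, 149 were higher and 453 lower by the looser criterion, and the log2 difference of Itih2 stayed at 1.79. Of 216 list medians 17 had the other sign, in 11 of 18 lists. These were the microglia, liver, neuron, hyaluronan, endothelial, choroid plexus, pericyte, BMP-Smad, RANK ligand, oligodendrocyte and estrogen response lists.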
